A study of Mus musculus with 18 samples.

Results

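Endothelial cells line the inside of blood and lymph vessels, and 38 genes that mark them were followed in brown adipose tissue (BAT) and white adipose tissue (WAT) of mice with raised human FXR in fat. The genes were a list of receptors, adhesion molecules, transcription factors and other proteins of endothelium, matched by symbol to probe sets that carry exactly 1 gene symbol, with the probe set of highest mean level for each gene. All 38 listed genes were measured, each by 1 such probe set, among 19937 genes in all. FXR, the farnesoid X receptor, is a nuclear receptor that is switched on by bile acids.

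The groups were FXR BAT (5 arrays), control BAT (5 arrays), FXR WAT (4 arrays) and control WAT (4 arrays), 18 arrays in all. FXR mice overexpressed human FXR, labelled as adipose-specific, and control mice were wild type. All mice were male C57BL/6J, 10 weeks old and on chow, and 500 ng of RNA per sample was labelled with biotin for Affymetrix mouse gene arrays. The extract text of control BAT 2 and control BAT 4 adds a feeding period of 6 weeks. Not given in the sources used here are the promoter that drives the transgene, the depot of the WAT samples and whether single mice gave both tissues. The design text calls the samples biological replicates, and p-values measure the spread between samples as labelled.

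Endothelium senses growth factors through receptor kinases such as those for vascular endothelial growth factor (VEGF) and the angiopoietins, and it seals the vessel wall with cadherin and claudin junctions. In fat the capillaries also pass fatty acids from the blood to adipocytes, and brown fat is a densely vascular tissue. Notch signalling and transcription factors of the ETS and SOX families set the identity of arteries, capillaries and veins.

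Levels below are log2(intensity + 1) of the deposited intensities, called log2 levels, and differences are FXR minus control in log2 units unless another pair is named. A gene is called when its adjusted p is below 0.05 with limma's moderated test and Benjamini-Hochberg adjustment over all 19937 genes. Most members were measured well above the lowest values of the arrays. Within 1.5 times the 1% quantile lay the group means of Mmrn1 in both BAT groups, of Clec14a in both WAT groups and of Flt4 in control WAT, and differences of such dim genes are compressed. Members in BAT had a median level of 4.49 times that floor in FXR BAT and 5.69 times in control BAT. In WAT the corresponding medians were 2.30 times in FXR WAT and 2.51 times in control WAT. Replicate arrays were close for most members, with a median SD over the 38 of 0.12 log2 units in FXR BAT, 0.12 in control BAT, 0.15 in FXR WAT and 0.15 in control WAT. Cldn5 spread most in both FXR groups, with an SD of 0.44 in FXR BAT and 0.58 in FXR WAT.

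Array medians lay between 93.1 and 99.9 intensity units in BAT and between 60.5 and 61.7 in WAT, and correlations between arrays of a group were 0.973 to 0.995. Mouse Nr1h4, the gene of FXR, was not called in BAT (0.05 ± 0.03, SE, adjusted p = 0.408, limma) or in WAT (0.03 ± 0.04, adjusted p = 0.834), and the transgene itself is human. Brown adipocyte genes averaged 9.38 to 9.64 on FXR BAT arrays, 10.09 to 10.49 on control BAT arrays and 5.95 to 6.08 on WAT arrays. Marker lists of other cells differed in BAT. All 13 macrophage genes and all 8 fibroblast genes were called higher in FXR BAT, with medians of 0.75 and 1.23, and 8 of 9 brown adipocyte genes were called lower, with a median of -0.43. Over all genes 7.01% were called higher and 8.75% lower. Skeletal muscle genes averaged 10.89, 10.35 and 10.85 on FXR BAT 1, 2 and 4, 6.94 and 8.73 on FXR BAT 3 and 5, and 6.75 to 9.08 on control BAT arrays. The plot of marker lists shows these values. The part of these other cells in the member results was not tested, and in bulk tissue fewer cells of a type and less RNA per cell cannot be told apart.

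**Figure D1:**
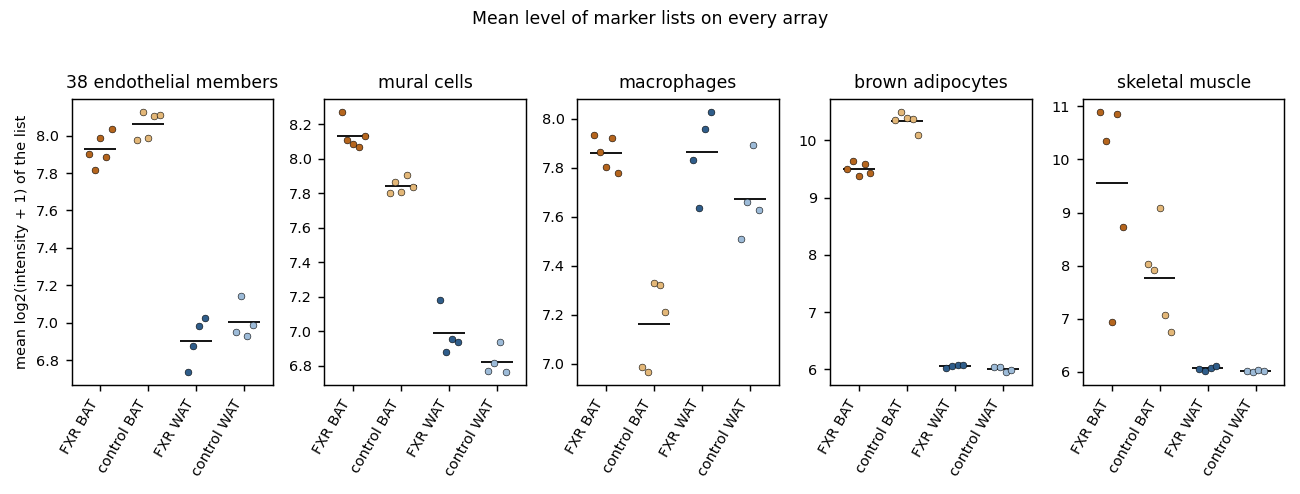
Mean log2(intensity + 1) of 5 marker lists (vertical axis) on each array (points) in the 4 groups (horizontal axis), with bars at the group means. The 38 endothelial members averaged 7.82 to 8.04 on FXR BAT arrays and 7.98 to 8.12 on control BAT arrays, overlapping ranges, while macrophage genes were higher and brown adipocyte genes lower on every FXR BAT array than on any control BAT array.

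In BAT, part of the endothelial list was lower with FXR, while of the general markers Pecam1 and Cdh5 were not called and Vwf was higher. Of the 38 members, 10 were called lower (26.3%, against 8.75% of all genes) and 1 was called higher (2.63%, against 7.01%), and 27 were not called. The lower members were the receptor genes Kdr, Eng and Flt1, the surface protein genes Btnl9 and Cyyr1, and Egfl7, Rasip1, Sox18, Adgrl4 and Notch4, and the higher one was Vwf. At an unadjusted p below 0.05 there were 16 members (28.2% of all genes passed), 13 of them lower (34.2%, against 14.4% of all genes), and 27 members lay below 0 (71.1%, against 43.7%). The median difference of the members was -0.08, beside 0.01 for all genes. For 8 members (21.1%, against 6.29% of all genes) every FXR array lay below every control array, and for 0 members (against 5.89%) did every FXR array lie above. Of all genes 28.7% in FXR BAT and 30.9% in control BAT had a mean within 1.5 times the 1% quantile, but of the members only Mmrn1. The shares over all genes, here and below, are not matched for brightness. The part of brightness in the gaps between these shares was not tested.

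The receptors included the largest decrease. Kdr encodes VEGF receptor 2, the main signalling receptor for VEGF in endothelium. Its log2 levels were 9.00, 8.66, 9.21, 9.03 and 9.09 on the 5 FXR BAT arrays, against 9.72, 9.96, 9.69, 9.66 and 9.87 on the 5 control BAT arrays. Every FXR array was below every control array, and Kdr was 1.72-fold lower (-0.78 ± 0.10 log2 units, SE, adjusted p = 0.000333, limma). Eng encodes endoglin, a co-receptor for ligands of the transforming growth factor family. It stood at 8.20, 8.23, 8.22, 8.32 and 8.44 in FXR BAT, against 8.60, 9.04, 8.78, 8.88 and 8.62 in control BAT. The groups did not overlap, and Eng was 1.42-fold lower (-0.50 ± 0.08, adjusted p = 0.00218, limma). Flt1, the gene of VEGF receptor 1, which binds VEGF tightly and signals weakly, had levels of 8.37, 8.46, 8.58, 8.28 and 8.53 in FXR BAT, against 8.67, 9.00, 8.78, 8.93 and 8.69 in control BAT. It was lower on every FXR array as well (-0.37 ± 0.08, adjusted p = 0.00741, limma).

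The other 3 receptors were not called in BAT. Tek, the angiopoietin receptor Tie2, differed by -0.06, with a 95% interval from -0.20 to 0.08. Its relative Tie1, a receptor without a classical ligand of its own, differed by -0.08, with an interval from -0.33 to 0.17. Flt4, the receptor for VEGF-C that is typical of lymphatic endothelium, differed by 0.02, with an interval from -0.09 to 0.14. These intervals leave out a decrease of the size measured for Kdr.

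No gene for junctions and adhesion was called in BAT, out of 8. Pecam1, the platelet and endothelial adhesion molecule CD31 that is the most used marker of endothelium, had levels of 8.79, 8.67, 9.07, 8.78 and 8.88 in FXR BAT, against 8.69, 8.96, 8.62, 8.96 and 8.91 in control BAT. The groups overlapped throughout, and the difference was 0.01 with a 95% interval from -0.18 to 0.20. Cdh5, the gene of VE-cadherin, which holds endothelial cells together at their junctions, stood at 8.74, 8.79, 9.23, 8.89 and 9.17 in FXR BAT, against 9.19, 9.30, 8.93, 9.30 and 9.32 in control BAT. It differed by -0.24 with an interval from -0.48 to -0.01 and an adjusted p of 0.168 (limma), so it was not called. Its difference came to -0.01 once FXR BAT 1, 2 and 4 were left out. Cldn5, the tight junction claudin of endothelium, spread most among these genes, from 7.53 to 8.60 in FXR BAT and from 7.99 to 8.63 in control BAT. The adhesion genes Esam, Icam2 and Robo4 and the sialomucin genes Emcn and Podxl differed by -0.18 to -0.07, and none was called.

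Of 4 transcription factor genes, 1 was called. Sox18, which acts in vessel and lymphatic development, had levels of 8.07, 7.80, 8.02, 7.89 and 8.01 in FXR BAT, against 8.38, 8.48, 8.13, 8.13 and 8.19 in control BAT. The groups were separate by a small margin, and Sox18 was lower (-0.30 ± 0.08, adjusted p = 0.0216, limma). Its relatives Sox7 and Sox17 differed by -0.13 and 0.03, and the ETS factor gene Erg, which keeps endothelial genes active, by -0.04, and these 3 were not called.

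Secreted proteins held 1 call in each direction. Egfl7, a matrix-bound protein that endothelium releases around growing vessels, stood at 8.49, 8.37, 8.76, 8.45 and 8.81 in FXR BAT, against 8.87, 9.02, 8.99, 8.99 and 9.06 in control BAT. All FXR arrays were below the controls (-0.41 ± 0.08, adjusted p = 0.00676, limma). Vwf, the gene of von Willebrand factor, which endothelium stores and releases to capture platelets, stood at 7.58, 7.30, 7.29, 7.42 and 7.42 in FXR BAT, against 7.06, 7.16, 7.04, 7.13 and 7.32 in control BAT. Control BAT 5 reached the FXR range, and Vwf was higher by 0.26 ± 0.07 (adjusted p = 0.0228, limma). Platelets and megakaryocytes also make Vwf. Of 6 measured platelet genes 1 was called higher (against 7.01% of all genes), Pf4, by 0.59 ± 0.08 (adjusted p = 0.000762, limma). The platelet list averaged 6.77 to 6.90 on FXR BAT arrays and 6.62 to 6.76 on control BAT arrays. The part of platelets in the Vwf difference was not tested. The multimerin genes Mmrn1 and Mmrn2 differed by 0.05 and -0.02 and were not called.

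Among signalling enzymes and adaptors, Rasip1, which acts on small GTPases to open the vessel lumen, was called. Its levels were 7.43, 7.45, 7.47, 7.44 and 7.62 in FXR BAT, against 7.65, 7.88, 7.66, 7.72 and 7.83 in control BAT. The groups were separate, with FXR BAT 5 close to the lowest control, and the difference was -0.26 ± 0.05 (adjusted p = 0.00783, limma). Nos3, the endothelial nitric oxide synthase, differed by -0.06 with a 95% interval from -0.16 to 0.03, and Ptprb, the phosphatase that acts on Tie2 and VE-cadherin, by -0.02 with an interval from -0.15 to 0.11.

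Of the 5 genes for G protein-coupled receptors and their partner, 1 was called. Adgrl4, an adhesion receptor enriched in vessels, stood at 8.89, 8.89, 8.96, 9.11 and 9.15 in FXR BAT, against 9.13, 9.46, 9.28, 9.38 and 9.22 in control BAT. FXR BAT 5 overlapped the controls, and the difference was -0.29 ± 0.07 (adjusted p = 0.0183, limma). Adgrf5, a relative of Adgrl4, differed by a similar -0.29 ± 0.10 but was not called (adjusted p = 0.0763, limma). Aplnr, the apelin receptor, Ednrb, the endothelin receptor B, and Ramp2, which lets its receptor bind adrenomedullin, differed by 0.07, 0.18 and 0.06, and none was called.

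For the Notch pathway, Notch4, the Notch receptor typical of endothelium, had levels of 7.20, 7.24, 7.33, 7.30 and 7.32 in FXR BAT, against 7.43, 7.45, 7.39, 7.31 and 7.46 in control BAT. Control BAT 4 lay inside the FXR range, and the difference was -0.13 ± 0.04 (adjusted p = 0.0449, limma). Its ligand gene Dll4 differed by -0.13 with a 95% interval from -0.33 to 0.07 and was not called.

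The remaining surface proteins held a pair of large decreases. Btnl9 encodes a butyrophilin-like protein of the immunoglobulin family. It stood at 7.78, 7.69, 8.20, 7.66 and 7.89 in FXR BAT, against 8.55, 8.66, 8.56, 8.54 and 8.67 in control BAT. Every FXR array was below the narrow control range, and Btnl9 was 1.68-fold lower (-0.75 ± 0.09, adjusted p = 0.000285, limma). Cyyr1, which encodes a small cysteine- and tyrosine-rich membrane protein, stood at 7.81, 7.76, 7.58, 7.85 and 7.95 in FXR BAT, against 8.46, 8.52, 8.31, 8.55 and 8.29 in control BAT. The groups were again separate, and Cyyr1 was 1.55-fold lower (-0.64 ± 0.07, adjusted p = 0.000247, limma). The other 4 were not called: Plvap, which builds the diaphragms of endothelial pores, differed by 0.04, the C-type lectin genes Clec14a and Cd93 by -0.00 and 0.24, and Ecscr, a regulator of endothelial migration, by 0.16.

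**Figure D2:**
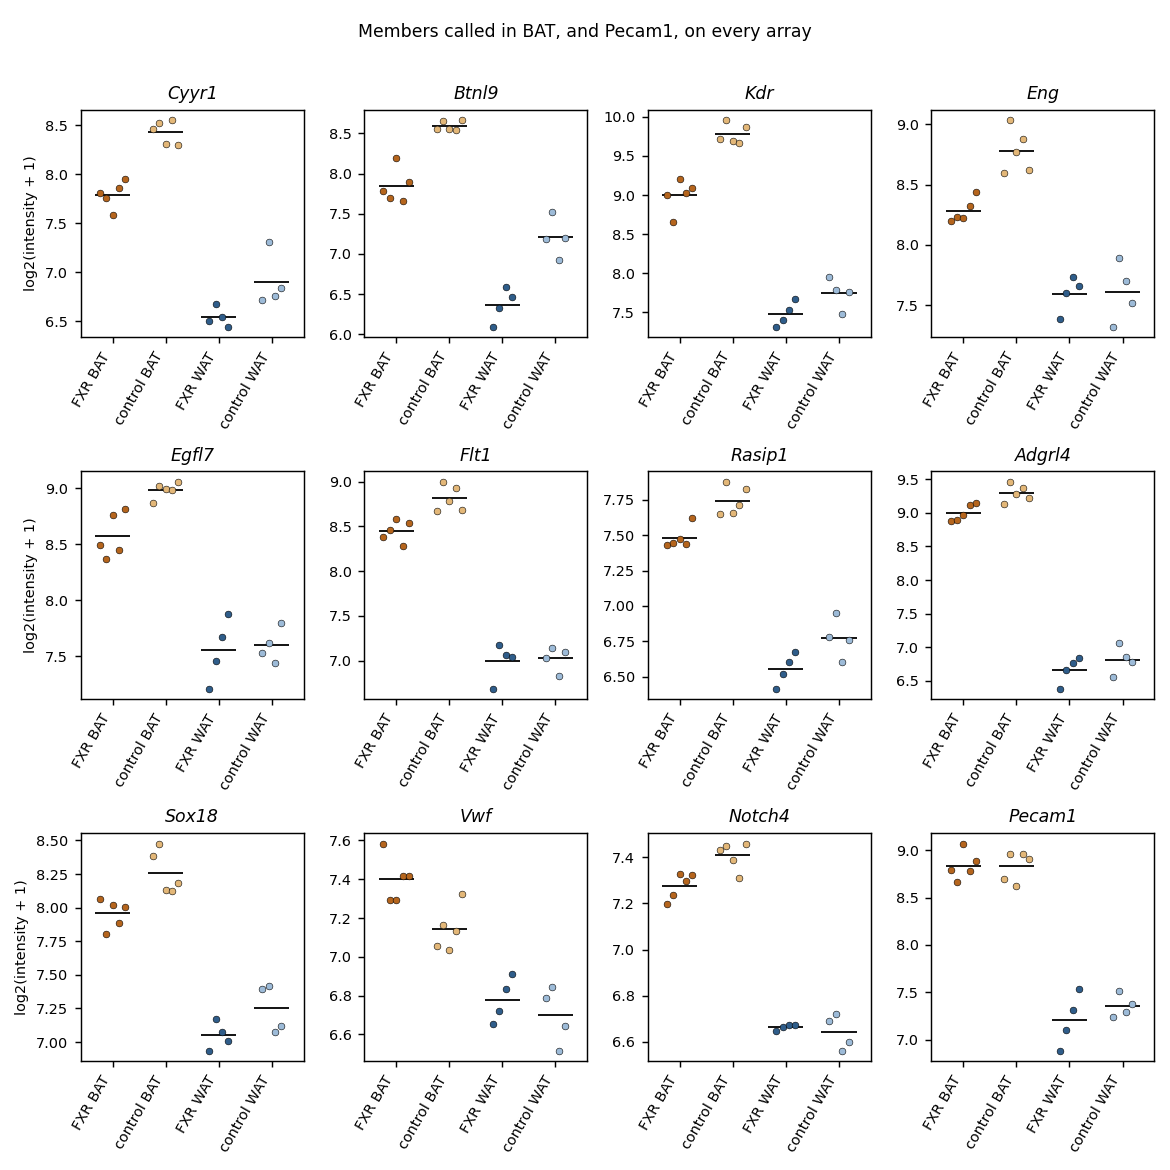
Log2(intensity + 1) (vertical axis) of the 11 members called in BAT and of Pecam1 on each array (points) of the 4 groups (horizontal axis), with bars at the group means. Kdr, Btnl9, Cyyr1 and Eng separate the FXR BAT arrays from the control BAT arrays, and Pecam1 does not.

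**Figure D3:**
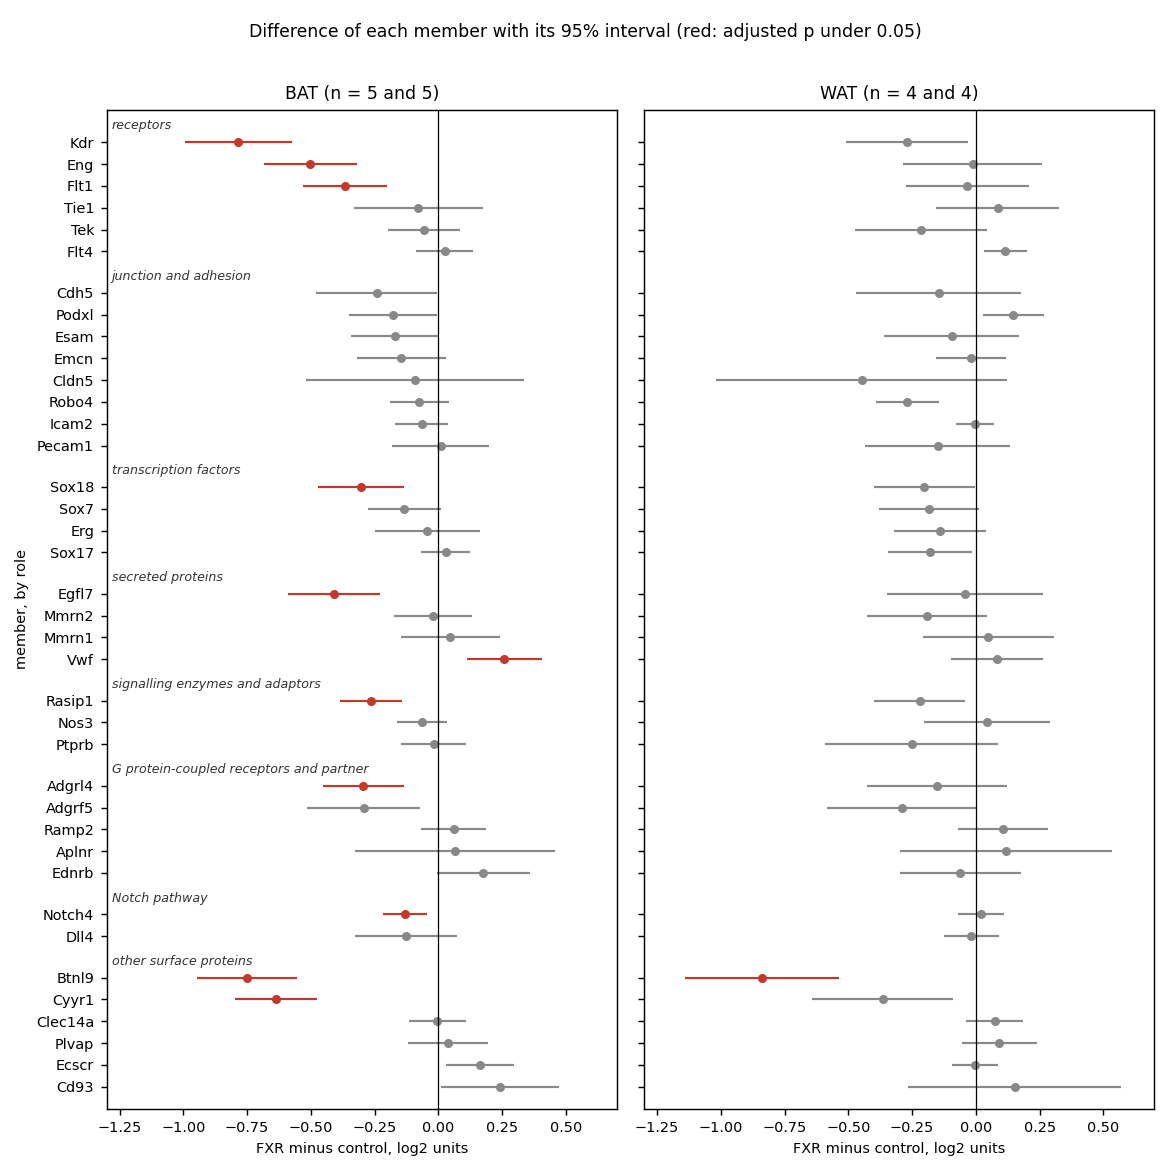
Difference between FXR and control in log2 units (horizontal axis, points) with 95% intervals (lines) for all 38 members, ordered by role (vertical axis), in BAT on the left and in WAT on the right, with called members in red. In BAT 27 members lie below 0 and 11 above, and in WAT 26 below and 12 above.

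The 4 members Kdr, Eng, Btnl9 and Cyyr1 kept their call in each of the 22 other settings and array removals tried in BAT. Without FXR BAT 1, 2 and 4, the arrays with the most muscle RNA, these 4 were the members called lower (10.5%, against 4.98% of all genes) and 0 were called higher (against 4.61%), and the median of the members was 0.01. The same 4 and no other were called without control BAT 2 and 4, 10.5% against 3.57% of all genes lower and 3.53% higher, with a median of -0.07. Notch4 lost its call in 13 of the 22 settings, Vwf in 6, Sox18 in 5, Adgrl4 in 3, and Flt1, Egfl7 and Rasip1 in 2 each. Fits with fewer arrays call fewer genes, and without FXR BAT 1, 2 and 4 most of the differences were smaller too. Egfl7 then differed by -0.20 (adjusted p = 0.0597, limma), against -0.41 with all arrays, Flt1 by -0.26 against -0.37, and Notch4 by -0.08 against -0.13. Kdr differed by -0.63 and Btnl9 by -0.55 in that fit, both still called, and Cyyr1 by -0.66. Without control BAT 2 and 4, Flt1 differed by -0.27, Adgrl4 by -0.21 and Eng by -0.38, also smaller than with all arrays. Kdr (-0.76), Egfl7 (-0.40) and Btnl9 (-0.75) stayed close to their full values there, and Notch4 (-0.15) was slightly larger. The part of the muscle RNA in the shifts without FXR BAT 1, 2 and 4 was not tested.

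These 4 differences were present relative to Pecam1 on the same array, a measure chosen after the values had been seen and given here without a test. Probe sets differ in brightness, so the groups can be compared but the sign of the value itself has no meaning. Kdr minus Pecam1 was 0.21, -0.01, 0.14, 0.25 and 0.20 log2 units in FXR BAT, against 1.02, 1.00, 1.06, 0.70 and 0.96 in control BAT. For Btnl9 minus Pecam1 the ranges were -1.12 to -0.87 in FXR BAT and -0.42 to -0.07 in control BAT. Cyyr1 minus Pecam1 ranged from -1.49 to -0.91 in FXR BAT and from -0.62 to -0.24 in control BAT, and Eng minus Pecam1 from -0.85 to -0.44 in FXR BAT and from -0.29 to 0.15 in control BAT. In none of the 4 did the BAT groups overlap. The genes were chosen because they were called lower and Pecam1 because it was not, so this separation restates that choice array by array.

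**Figure D4:**
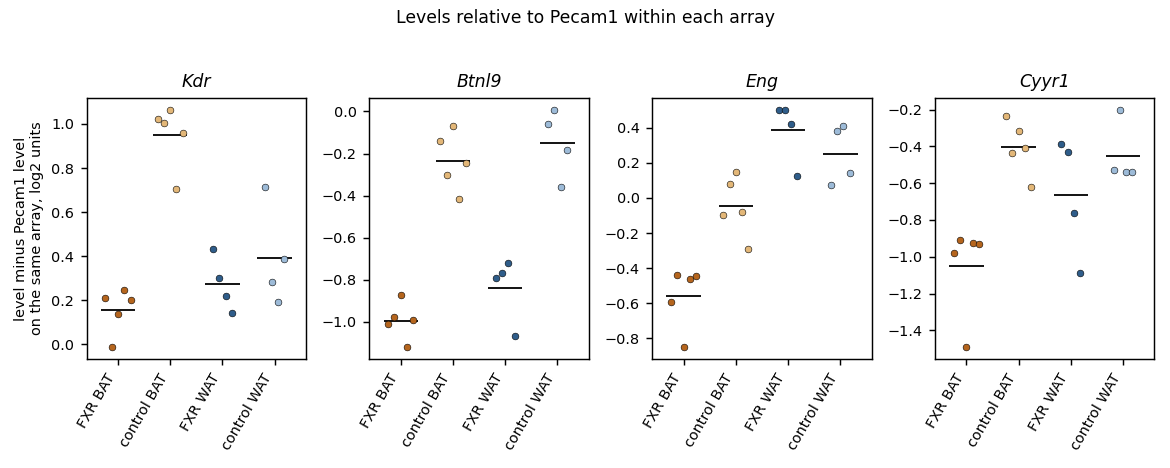
Log2 level of Kdr, Btnl9, Eng and Cyyr1 minus that of Pecam1 on the same array (vertical axis, log2 units) in the 4 groups (horizontal axis), with a point per array and bars at the group means. FXR BAT lies below control BAT without overlap in all 4 panels, and in WAT the groups are separate for Btnl9.

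The sequences before the start sites of the same 4 genes are shown because these members were called lower in every setting tried in BAT. Of the 38 members, 21 had a window of 250 bases before and 50 after the start in the RefSeq table (GRCm38.p6), among them 9 of the 10 members lower in BAT. The motif AGGAAG (reverse CTTCCT), a core that factors of the ETS family such as Erg bind, was in the windows of 13 of the 21 members (61.9%) and of 38.4% of all 27025 genes in the table, and 8 of the 9 lower members held it. AACAAT (reverse ATTGTT), a core for SOX factors, was in 4 of the 21 (19.0%, against 12.2% of all genes) and in 0 of the 9 lower members. The classical FXR element, an inverted repeat of AGGTCA with 1 base between its copies, was in 0 of the 21 and in 0.0111% of all genes. Only this exact form was searched, and 3 of the 27025 genes held it. With so rare a sequence, its absence from the 21 carries no information. Both strands were searched, the 3 motifs were counted separately, and none contains another. A match is a description of letters and not a binding site. Below are the 250 bases before each start, 5′ to 3′ on the gene's own strand, with ETS motif matches in capitals. They lie at chr5:75978456-75978705 (minus strand) for Kdr, chr11:49187090-49187339 (minus strand) for Btnl9, chr16:85550374-85550623 (minus strand) for Cyyr1 and chr2:32646345-32646594 (plus strand) for Eng.
Kdr: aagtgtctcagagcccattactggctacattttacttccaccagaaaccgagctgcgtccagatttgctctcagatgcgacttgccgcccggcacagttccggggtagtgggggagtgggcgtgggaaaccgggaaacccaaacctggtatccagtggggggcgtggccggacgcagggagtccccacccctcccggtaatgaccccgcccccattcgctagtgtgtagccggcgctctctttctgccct
Btnl9: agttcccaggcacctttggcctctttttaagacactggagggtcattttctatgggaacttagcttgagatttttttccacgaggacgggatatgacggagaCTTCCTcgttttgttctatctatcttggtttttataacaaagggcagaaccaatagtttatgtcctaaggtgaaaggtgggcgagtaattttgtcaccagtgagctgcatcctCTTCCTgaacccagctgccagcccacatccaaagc
Cyyr1: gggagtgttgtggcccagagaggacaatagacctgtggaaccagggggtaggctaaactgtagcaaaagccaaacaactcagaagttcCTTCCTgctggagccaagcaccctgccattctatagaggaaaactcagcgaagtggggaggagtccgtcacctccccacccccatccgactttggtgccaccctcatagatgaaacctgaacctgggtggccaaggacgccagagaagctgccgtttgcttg
Eng: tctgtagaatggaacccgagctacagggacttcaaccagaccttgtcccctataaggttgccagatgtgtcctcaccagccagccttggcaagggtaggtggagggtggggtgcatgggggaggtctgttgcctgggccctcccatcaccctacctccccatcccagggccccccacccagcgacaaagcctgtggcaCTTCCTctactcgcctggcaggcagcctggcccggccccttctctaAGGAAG
For AGGAAG or CTTCCT the Kdr window held 0 matches, Btnl9 held 2, Cyyr1 held 1 and Eng held 2, and in Eng a match ends directly before the start. Other sequences that ETS factors bind were not searched, so the 0 for Kdr covers this 1 motif only.

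Further endothelial genes that are not members were mixed in BAT. Of 30 measured, 6 were called higher (against 7.01% of all genes) and 6 lower (against 8.75%). Stab1, a scavenger receptor of sinusoidal endothelium that macrophages also carry, was higher by 0.76 ± 0.04 (adjusted p = 1.42e-06, limma), Cd34, a sialomucin of capillaries that fat progenitors also carry, was higher by 1.11 ± 0.12 (adjusted p = 0.000216), and Epas1, the hypoxia-inducible factor HIF-2α, was lower (-0.52 ± 0.08, adjusted p = 0.00115). Macrophage and fibroblast lists were higher in the same samples, and the brown adipocyte list was lower, as given above. The part of these cells in the 30 genes was not tested. Without FXR BAT 1, 2 and 4, 4 of the 30 were higher (against 4.61% of all genes) and 1 was lower (3.33%, against 4.98%).

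Genes by which fat capillaries handle lipid were in part lower in FXR BAT. Of 12, 4 were called lower (against 8.75% of all genes) and 0 higher (against 7.01%), with a median of -0.19. In the same arrays 5 of 6 adipocyte genes were called lower, with a median of -0.29. The part of adipocytes in this list was not tested. Car4, a carbonic anhydrase on capillaries, was lower (-0.61 ± 0.10, adjusted p = 0.00242, limma). So were Tcf15, a transcription factor that with Meox2 drives fatty acid uptake genes (-0.17 ± 0.04, adjusted p = 0.0138, limma), and Cd36, the fatty acid translocase that adipocytes share (-0.22 ± 0.06, adjusted p = 0.0235). Fabp4, a fatty acid-binding protein of adipocytes and of fat capillaries, averaged 12.54 in FXR BAT and 12.67 in control BAT and was not called (-0.13 ± 0.06, adjusted p = 0.175, limma). Without FXR BAT 1, 2 and 4, the list had 2 lower (Aqp1 and Car4) and 1 higher (Fabp5), beside 4.98% and 4.61% of all genes.

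Among genes of mural cells, the pericytes and smooth muscle cells around vessels, higher calls were the more frequent in BAT. Of 14 genes, 8 were called higher (7.01% of all genes were), 1 was called lower (8.75% were) and 5 were not called, with a median of 0.20. Smooth muscle actin Acta2 was higher by 1.28 ± 0.13 (adjusted p = 0.000151, limma), smooth muscle myosin Myh11 by 0.80 ± 0.13 (adjusted p = 0.00221) and Tagln by 0.71 ± 0.12 (adjusted p = 0.00304), and the pericyte proteoglycan gene Cspg4 was lower (-0.20). Without FXR BAT 1, 2 and 4, 6 were higher (against 4.61% of all genes) and 0 lower (against 4.98%). Acta2 and Tagln are also made by myofibroblasts, and the fibroblast list was higher in the same arrays.

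Of 5 lymphatic genes, 3 were called higher (against 7.01% of all genes): Pdpn by 0.40 ± 0.05 (adjusted p = 0.000413, limma), Lyve1 by 0.95 ± 0.15 (adjusted p = 0.00172) and Reln by 0.20 ± 0.05 (adjusted p = 0.0315). Without FXR BAT 1, 2 and 4, Reln lost its call. Prox1 and Nr2f2, transcription factors of lymphatic and venous identity, were not called, and fibroblasts and macrophages can carry Pdpn and Lyve1. Of 12 arterial and Notch genes, 2 were called higher (against 7.01% of all genes), the Notch target genes Hey2 (0.21) and Hes1 (0.22). Both calls were lost without FXR BAT 1, 2 and 4, at differences of 0.21 (adjusted p = 0.0548, limma) and 0.29 (adjusted p = 0.0791). Of 3 venous genes 0 were called with limma, with 1 at an unadjusted p below 0.05. Of 12 ligand genes for member receptors, 1 was called lower (against 8.75% of all genes). It was Vegfa, the gene of VEGF itself (-0.49 ± 0.12, adjusted p = 0.0160, limma). It averaged 9.56 in FXR BAT and 10.05 in control BAT. The Vegfa call was lost without FXR BAT 1, 2 and 4, where the difference was -0.25 (adjusted p = 0.258, limma) and Angpt1 and Adm were called higher, and without control BAT 2 and 4, where it was -0.49 (adjusted p = 0.0911).

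In WAT 1 member was called. Btnl9 stood at 6.09, 6.33, 6.59 and 6.46 on the 4 FXR WAT arrays, against 7.18, 7.52, 6.93 and 7.20 on the 4 control WAT arrays. The groups did not overlap, and Btnl9 was 1.79-fold lower (-0.84 ± 0.13, adjusted p = 0.0266, limma). That is 2.63% of the members, against 0.456% of all genes called lower, and 0 members were called higher (against 0.873%). The call was lost in 6 of the 8 fits that left out 1 array: without FXR WAT 1, 2 or 4 and without control WAT 1, 2 or 4. The value stayed between -0.87 and -0.73 in these fits. At an unadjusted p below 0.05 there were 9 members (23.7%, against 12.5% of all genes), 7 of them lower (18.4%, against 5.47%). In all 26 members lay below 0 (68.4%, against 49.2%), and the median over the list was -0.05, beside 0.00 for all genes. The mean level of the 38 members was 6.74 on FXR WAT 1 and 6.88 to 7.02 on the other FXR WAT arrays. It was 7.14 on control WAT 2 and 6.93 to 6.99 on the other control WAT arrays. The part of FXR WAT 1 and control WAT 2 in the shift of the list was not tested. FXR arrays lay wholly below the control arrays for Btnl9, Robo4 and Cyyr1 (7.89%, against 3.47% of all genes) and wholly above for Flt4 (2.63%, against 4.31%).

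Apart from Btnl9, the members called in BAT were not called in WAT. Kdr stood at 7.31, 7.40, 7.53 and 7.67 in FXR WAT, against 7.96, 7.79, 7.48 and 7.77 in control WAT. Control WAT 3 lay inside the FXR range, and the difference was -0.27 with a 95% interval from -0.51 to -0.03 (adjusted p = 0.328, limma). Cyyr1 had 6.50, 6.67, 6.55 and 6.44 in FXR WAT, against 6.72, 7.31, 6.75 and 6.84 in control WAT. Though separate, the groups differed by -0.36 with an adjusted p of 0.234 (limma), and control WAT 2 was the highest. Eng differed by -0.01 with an interval from -0.28 to 0.26, Flt1 by -0.03 with an interval from -0.28 to 0.21 and Egfl7 by -0.04 with an interval from -0.35 to 0.26.

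Of the general markers, Pecam1 stood at 6.88, 7.10, 7.31 and 7.53 in FXR WAT, against 7.24, 7.51, 7.29 and 7.38 in control WAT, and differed by -0.15 with a 95% interval from -0.43 to 0.14. Cdh5 stood at 7.11, 7.50, 7.71 and 7.81 in FXR WAT, against 7.62, 7.88, 7.52 and 7.69 in control WAT, and differed by -0.14 with an interval from -0.47 to 0.18. FXR WAT 1 was the lowest array for both. Vwf stood at 6.65, 6.72, 6.83 and 6.91 in FXR WAT, against 6.79, 6.84, 6.52 and 6.64 in control WAT, and its difference of 0.08 was not called. Robo4, a roundabout receptor that steadies the vessel wall, stood at 6.58, 6.76, 6.75 and 6.84 in FXR WAT, against 6.98, 7.06, 6.95 and 7.01 in control WAT, and narrowly missed the threshold (-0.27 ± 0.05, adjusted p = 0.0552, limma). The widest interval in WAT was that of Cldn5, from -1.02 to 0.12.

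The further lists had few calls in WAT, where 0.873% of all genes were called higher and 0.456% lower. The adhesion molecule gene Vcam1 was higher by 0.35 ± 0.06 (adjusted p = 0.0358, limma) among 30 other endothelial genes, Rgcc, a capillary cell cycle regulator, was lower (-0.40 ± 0.04, adjusted p = 0.00795) among 12 genes for lipid handling, and Des was higher by 0.27 ± 0.04 (adjusted p = 0.0250) among 14 mural genes. No lymphatic (2 at an unadjusted p below 0.05), arterial (1), venous (0), ligand (2) or platelet gene (0) was called with limma. Fabp4 averaged 10.35 in FXR WAT and 10.55 in control WAT (-0.20 ± 0.12, adjusted p = 0.565, limma).

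Whether the FXR difference itself depended on the tissue was tested over all 18 arrays as the WAT difference minus the BAT difference. Of the 38 members, 0 were called with limma (against 4.44% of all genes higher and 2.02% lower), and 8 had an unadjusted p below 0.05 (21.1%, against 20% of all genes). Kdr came closest, with 0.51 ± 0.15 and a 95% interval from 0.19 to 0.83 (adjusted p = 0.0525, limma), a smaller decrease in WAT. It was called in 6 of the 26 other settings, given below. After quantile normalization the Kdr value was only 0.29, and over the 26 settings its adjusted p reached 0.409 (limma). Eng had 0.49 ± 0.15 (adjusted p = 0.0637) and Podxl 0.32 ± 0.11 (adjusted p = 0.0793). For Btnl9 the value was -0.09 with an interval from -0.44 to 0.26. The larger share of dim values in WAT compresses differences there, and its part in these values was not tested. Across the 38 members the BAT and WAT differences, from separate samples as labelled, had a Pearson correlation of 0.59, beside 0.25 across all genes, and 22 members (57.9%, against 23.1% of all genes) were below 0 in both tissues. Genes are not independent replicates, FXR WAT 1 was low over the list as given above, and these values are a description.

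The tissues were compared after quantile normalization of all 18 arrays, since the deposited BAT and WAT intensities had not been brought to 1 distribution. Between control BAT and control WAT, 8 members were called higher (29.3% of all genes) and 14 lower (28.8% of all genes), so the list as a whole was called about as often as all genes, 57.9% against 58.1%. With the values as deposited, 36 members were called higher (94.8% of all genes) and 0 lower (1.98%), and with each array centred on its median gene 25 higher (36.2% of all genes) and 5 lower (46.8%). Directions thus depended on the scaling for many members. Kdr, Flt1, Emcn, Podxl, Mmrn2, Adgrl4, Ecscr and Cyyr1 were called higher in control BAT under all 3 scalings, and no member was called lower under all 3. Cyyr1 was near the threshold after quantile normalization (adjusted p = 0.0422, limma). Its call was lost in 8 of 13 other settings, each of the 8 leaving out 1 array.

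Adgrl4 had the largest tissue difference under all 3 scalings. After quantile normalization its level averaged 8.78 ± 0.09 in control BAT (SD, n = 5) and 7.50 ± 0.26 in control WAT (SD, n = 4), and it was 2.42-fold higher in control BAT, by 1.28 ± 0.10 log2 units (SE, adjusted p = 5.38e-07, limma), with 2.48 as deposited and 1.82 after centring. Kdr was higher by 0.58 ± 0.13 (adjusted p = 0.00190, limma), Emcn by 0.54 ± 0.08 and Flt1 by 0.54 ± 0.09. At the other end, Cldn5 differed by -0.92, Ednrb by -0.83, Plvap by -0.80, Mmrn1 by -0.67, Cd93 by -0.65 and Ptprb by -0.52 after quantile normalization, each called lower, and all but Mmrn1 lay above 0 as deposited, where Mmrn1 was at -0.05. Between FXR BAT and FXR WAT, 10 members were called higher (26.8% of all genes) and 11 lower (27.4% of all genes), 55.3% in either direction against 54.2% of all genes. Adgrl4 again differed most among the higher ones (1.33 ± 0.12), and Plvap among the lower ones (-0.93 ± 0.07, 0.06 as deposited).

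**Figure D5:**
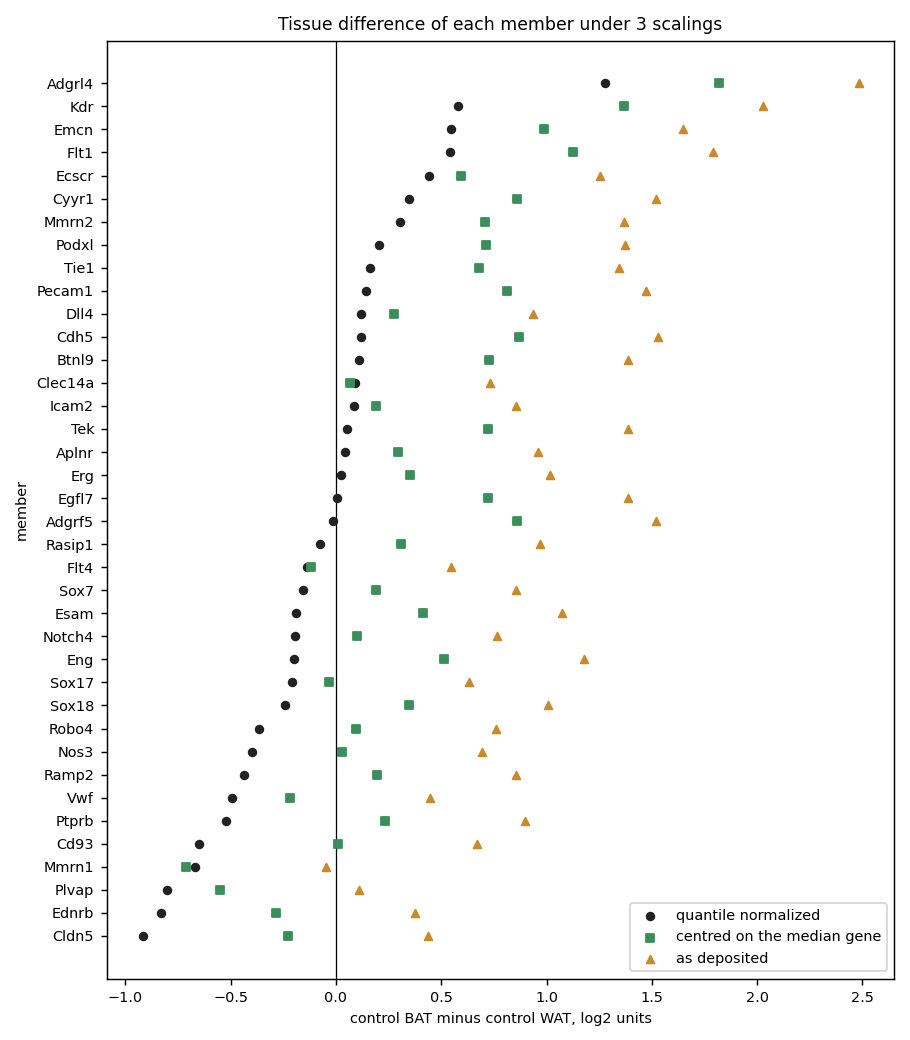
Difference between control BAT and control WAT in log2 units (horizontal axis) for each of the 38 members (vertical axis) with 3 scalings of the arrays, shown by different symbols. Adgrl4 and Kdr lie to the right of 0 under all 3, while Cldn5 and Ednrb lie to the left after quantile normalization and centring and to the right as deposited.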

How the data were processed

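Total RNA of 18 fat samples was measured on Affymetrix mouse gene arrays, 1 sample per array. Each probe set has 1 linear intensity per array in the deposited table, and these values span 36.0 to 15980. The authors' summary, background correction and normalization of the intensities are not given in the sources used here. The platform annotation gave 1 symbol to 21640 of 34760 probe sets, several to 1321 and none to 11799. Where a gene had more than 1 such probe set (954 genes), the one with the highest mean log2 level stood for it, giving 19937 genes.

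Intensities were used as the authors deposited them, on the scale log2(intensity + 1), and dim genes were kept. Between 27.8% and 33.4% of genes on BAT arrays lay within 1.5 times the 1% quantile of their array, and between 51.9% and 56.8% on WAT arrays. The test was limma 3.58.1 (lmFit, eBayes, two-sided) under R 4.3.3. Its p-values were adjusted by the Benjamini-Hochberg method across the 19937 genes, and calls were made below 0.05. FXR arrays were set against control arrays over 10 BAT arrays and over 8 WAT arrays, the difference between tissues over all 18, and BAT with WAT within a genotype after quantile normalization of all 18. The number of arrays limits the precision.

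The members, the role groups and the other gene lists were chosen with earlier results of these data known. All members are accounted for, values on every array are given for called members and for Pecam1, Cdh5, Vwf and Kdr, up to 6 members per direction are named between tissues, and up to 3 called genes from each other list, with Fabp4 throughout. Robo4, Adgrf5, Podxl, Cspg4 and the other members or genes singled out beyond that were chosen after their values were seen. Lists of adipocytes (5 of 6 lower in BAT, 1 in WAT), mesothelium (0 of 6 called in BAT, with 0 at an unadjusted p below 0.05 with limma) and Schwann cells (0 of 3 called in BAT, with 1 at an unadjusted p below 0.05) were run as well. Replicate numbers were not used to pair samples, since nothing in the labels ties equal numbers to a shared animal or batch and not every pair of same-numbered arrays deviated together. The test was tried on simulated data before use. Promoter windows came from RefSeq.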

Additional observations from a re-analysis of the deposited data

Results flagged for a closer look

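Of 152 sets of arrays checked (38 members in 4 groups), 6 held 1 array far from the others of its group, where chance alone gives about 1 in 20. Ecscr had a log2 level of 7.87 on FXR BAT 1, above 7.53 to 7.62 on the other FXR BAT arrays. Rasip1 had 7.62 on FXR BAT 5, above 7.43 to 7.47 on the others, and that array is the one nearest to the controls. Mmrn1, which lies near the floor in BAT, had 6.50 on control BAT 4 and 6.02 to 6.14 on the others. FXR WAT 1 was flagged as low for a pair of members: Esam had 6.78 there and 7.25 to 7.33 on the other FXR WAT arrays, and Adgrf5 had 7.85 there and 8.26 to 8.34 on the others. That array was also the lowest of its group over the whole list. The mean of the 38 members was 6.74 there, against 6.88, 6.98 and 7.02 on FXR WAT 2, 3 and 4. Ptprb had 8.23 on control WAT 2 and 7.81 to 7.88 on the other control WAT arrays.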

How the results depend on the processing

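In BAT 11 members were called, and 8 to 13 when 1 array was left out, but 4 without control BAT 2 and 4 and 4 without FXR BAT 1, 2 and 4, where fewer arrays were tested. Centring each array on its median gene called 16 members, 15 of them lower, and over all genes it called 776 higher and 4076 lower, beside 1398 and 1744. In WAT 1 member was called, and 0 to 1 when 1 array was left out, 2 with dim genes left out, 2 with all 18 arrays in 1 fit and 2 with array weights. With the replicate number as a block 9 members were called in BAT, 0 in WAT and 1 for the difference between tissues, and correlations of the deviations of same-numbered arrays were -0.49 to 0.28 in BAT, 0.01 to 0.16 in WAT, 0.06 to 0.13 between FXR BAT and FXR WAT and -0.08 to 0.26 between control BAT and control WAT. For the difference between tissues 0 members were called, against 1 with a pseudocount of 16, 4 after centring and 2 with dim genes left out. Leaving out 1 array gave 0 to 3 there, with 2 without control BAT 5, 2 without control WAT 2 and 3 without FXR WAT 1. Kdr passed in 6 of the 26 other settings, with values from 0.51 to 0.58. Over all 26 its value ran from 0.29, after quantile normalization, to 0.58. The share of all genes called can also change with the setting, and apart from centring in BAT it is not given beside these counts.

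Between control tissues 22 members were called, 36 as deposited and 20 to 23 with 1 array left out. Of the 14 called lower, 13 lay above 0 as deposited (0.11 to 1.07) and 7 after centring (0.0088 to 0.41). Among the members named for their tissue difference, directions turned as deposited for Cldn5 (0.44), Ednrb (0.38), Plvap (0.11), Cd93 (0.67) and Ptprb (0.90), and after centring for Cd93 (0.0088) and Ptprb (0.23). Between FXR tissues 36 were called as deposited, a scaling that called 94.8% of all genes higher between control tissues. After quantile normalization 21 were called, and 17 to 23 with 1 array left out. Of the 11 called lower, 10 lay above 0 as deposited (0.058 to 0.91) and 3 after centring (0.035 to 0.18). Among the named members, as deposited Plvap (0.058), Ednrb (0.61), Eng (0.69), Nos3 (0.59) and Cd93 (0.76) turned, and Cd93 (0.035) after centring. BAT and WAT arrays have different distributions, and the directions that turned depend on the scaling. Of the members called higher after quantile normalization, 8 between control tissues and 10 between FXR tissues, 0 turned under the other scalings. The intensities near the floor limit what can be seen of dim members in WAT.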
